A study of Mus musculus with 15 samples.

Results

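The response of mouse embryonic stem cells to retinoic acid was measured in cells carrying the short hairpin named sh4, from a series on Phf19, a protein that joins Polycomb repressive complex 2 (PRC2) as an accessory factor. The comparison takes the 3 arrays of sh4 cells given retinoic acid (titles numbered replicates 1, 3 and 4) and the 4 arrays of sh4 cells with no treatment (replicates 1 to 4), 7 of the 15 arrays of the series. The treated cells received 1 µM retinoic acid for 72 h. The other 8 arrays hold cells with a control hairpin, shCTR, 4 untreated and 4 given the same dose for the same time. They entered the same model, shared no array with the sh4 comparison, and served to test where the sh4 response differed. The target of sh4 is not named in the labels, which also give no cell line, strain, clone or culture medium, and give no culture time for untreated cells, so that retinoic acid and 72 h of culture cannot be told apart.

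Retinoic acid is the active form of vitamin A. Cells take up retinol, oxidise it through Rdh10 and the Aldh1a enzymes, carry the product on Crabp proteins and break it down with Cyp26 enzymes. In the nucleus it binds retinoic acid receptors (Rara, Rarb, Rarg), which sit with a retinoid X receptor partner on paired half-sites in DNA and exchange corepressors for coactivators when the ligand arrives. In embryonic stem cells it ends self-renewal and switches on Hox genes from the anterior end of each cluster. Untreated stem cells hold many of those genes under PRC2, which methylates histone H3 at lysine 27, and Phf19 helps bring the complex to chromatin.

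A textbook retinoic acid response element is a direct repeat of 2 half-sites with a spacer of 5 bases. The 250 bases before the start of each gene (RefSeq, GRCm38.p6) were searched on both strands for such repeats built from the half-sites AGGTCA or GGGTCA or AGTTCA or GGTTCA. Of the 45 members of the retinoid enzyme, receptor and other target lists, 28 had a promoter in the table, and 2 of these (7.14%) held the repeat, against 0.104% of all 27025 genes with a promoter. The 2 were Cyp26a1 (chr19:37697558-37697807, plus strand, repeat at −32 to −16 from the start) and Rarb (chr14:16575477-16575726, minus strand, repeat at −53 to −37). Both promoters are shown since these are among the genes that rose most in sh4 cells. Capitals mark the half-sites, which in Cyp26a1 read on the opposite strand.
Cyp26a1: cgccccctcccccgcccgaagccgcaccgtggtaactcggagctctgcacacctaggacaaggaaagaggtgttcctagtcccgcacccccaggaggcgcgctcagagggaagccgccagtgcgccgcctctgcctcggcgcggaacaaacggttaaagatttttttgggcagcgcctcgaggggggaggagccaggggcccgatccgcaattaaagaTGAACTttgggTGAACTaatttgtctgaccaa
Rarb: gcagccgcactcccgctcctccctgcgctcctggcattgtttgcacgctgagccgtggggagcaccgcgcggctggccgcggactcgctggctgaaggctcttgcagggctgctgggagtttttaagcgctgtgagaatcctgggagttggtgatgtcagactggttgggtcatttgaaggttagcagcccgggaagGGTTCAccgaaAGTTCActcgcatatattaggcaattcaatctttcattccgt
None of the 22 Hox genes with a promoter held the repeat in this window. Of the 14291 tested genes with a promoter, 12 (0.084%) held it. Of these 12, 4 rose, 3 fell and 5 did not pass the test, where 27.0% of all 25090 tested genes rose and 31.5% fell. The genes with the repeat that rose were Cyp26a1, Rarb, Ppbp and Prokr2, the last named after its value was seen. A match to these letters is a description of sequence and was not tested as a binding site. The lists were picked as retinoid genes and known targets, and their 7.14% rests on 2 genes. That share was not tested as an enrichment.

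Between 73.8% and 79.4% of probes lay well above background on each of the 15 arrays, and no spot was saturated. In the 7 sh4 arrays the first principal component, with 77.8% of the variance, parted treated from untreated cells. The second, with 13.4%, parted arrays on slides 1 and 2 from those on slides 3 and 4, so slide is given as an alternative. Titles call the arrays biological replicates without naming separate cultures, and the p-values measure the spread between these samples, which may be partly technical. The stem cell markers Pou5f1, Sox2, Nanog, Zfp42 and Esrrb were well above background on 4 of 4 untreated sh4 arrays. Phf19 was lower in untreated sh4 than in untreated shCTR cells, with mean log2 levels of −2.55 ± 0.04 (SD, n = 4) and −0.83 ± 0.15 (SD, n = 4).

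Retinoic acid changed most of the measured transcriptome of sh4 cells. Of 25090 genes, 14688 (58.5%) passed an adjusted p of 0.05, 6775 higher (27.0%) and 7913 lower (31.5%). Counts over the gene lists below are to be read beside these shares. Genes that changed 8-fold or more were more often higher, with 683 rises (2.72%) against 303 falls (1.21%). Treated and untreated arrays did not overlap for 14503 genes (57.8%), 6741 higher (26.9%) and 7762 lower (30.9%). The median log2 change over all genes was −0.12, and −0.27 when each array was centred on its median instead of its 75th percentile. With slide as a block the number changed was 16992. Levels below are log2 signals relative to the 75th percentile of the array, changes are log2 differences with the SE of the fit, and both come from bulk RNA, in which fewer cells of a type and less RNA per cell cannot be told apart.

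Hoxb1, a hindbrain Hox gene, had the highest fitted change, at −9.06, −8.97, −9.48 and −9.07 on the untreated arrays and 1.33, 1.25 and 1.29 on the treated ones. It was not well above background on any untreated array, so its rise is a lower bound of at least 562-fold (log2 change 10.44 ± 0.11, adjusted p = 2.2e-15). Such bounds set the treated mean against the lowest signal well above background on each untreated array. Arg1, which splits arginine in the urea cycle, rose at least 537-fold, Hoxb5 at least 453-fold, Hoxa5 at least 277-fold, Timd2, a ferritin receptor, at least 212-fold, and the platelet chemokine Ppbp at least 138-fold. Of the genes well above background on every sh4 array, Hoxb2 rose most (9.83 ± 0.12). The other large rises were Cyp26b1 (9.66 ± 0.15), Hoxb8 (8.34 ± 0.34), Cyp26a1 (8.14 ± 0.13), the matricellular protein Smoc2 (8.13 ± 0.09), cardiac actin Actc1 (8.11 ± 0.17), the growth factor binding protein Igfbp5 (8.02 ± 0.35), Hoxb4 (7.80 ± 0.14) and Zfp703 (7.71 ± 0.09). Of these 15 genes, 6 are Hox genes and 2 are retinoic acid hydroxylases. Hoxb8 and Igfbp5 were well above background on 1 of the 4 untreated sh4 arrays and Actc1 on 2. The sizes of these 3 rises thus rest partly on background signal.

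Spry4, a feedback inhibitor of FGF signalling, had the lowest fitted change. It lay at −0.09, 0.36, −1.60 and −1.79 on the untreated arrays and at −10.06, −9.80 and −7.96 on the treated ones, where no array was well above background, a fall of at least 137-fold (log2 change −8.49 ± 0.81, adjusted p = 6.7e-07). Of the genes well above background on every sh4 array, the growth factor gene Fgf4 fell most (−7.44 ± 0.51). Other stem cell regulators among the large falls were Foxd3 (−7.36 ± 0.58), Esrrb (−6.84 ± 0.46), Otx2 (−6.78 ± 0.10), Nr0b1 (−6.76 ± 0.32) and Prdm14 (−6.06 ± 0.33). Tdh, threonine dehydrogenase, on which mouse stem cells depend for one-carbon units, fell by 6.93 on the log2 scale. The remaining members were Olfr985 (−8.13 ± 0.65), Pipox (−6.55 ± 0.27), Pou4f2 (−6.42 ± 0.23), Dpys (−6.30 ± 0.20), Chrna9 (−6.20 ± 0.22), Aoah (−6.19 ± 0.31) and Kirrel2, which fell at least 37.4-fold. Olfr985 and Foxd3 were well above background on 1 of the 3 treated sh4 arrays and Aoah on 2. The sizes of these 3 falls thus rest partly on background signal.

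Most genes that break down, carry and take up retinoids rose. Of 17 carriers and enzymes, 13 were higher, 1 was lower and 3 did not pass, with a median log2 change of 2.84 against −0.12 for all genes. One member passed the filter on dim probes in neither sh4 group and 3 in 1 sh4 group only. Cyp26a1, the main retinoic acid hydroxylase, lay at −3.80, −3.61, −3.32 and −3.52 on the untreated arrays and at 4.62, 4.47 and 4.63 on the treated ones. Cyp26b1, its paralog, lay at −6.20, −5.75, −6.15 and −6.01 and at 3.63, 3.55 and 3.71. In both genes every treated array stood far above every untreated one, with changes of 8.14 ± 0.13 (adjusted p = 2.9e-14) and 9.66 ± 0.15 (adjusted p = 3.0e-14). Cyp26c1, the third hydroxylase, rose at least 3.01-fold from a level below background, and its call was lost under another background correction (normexp, log2 change 0.35, adjusted p = 0.085).

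Dhrs3, which returns retinal to retinol, rose by 5.85 ± 0.08, from −0.98, −0.95, −0.76 and −0.82 on the untreated arrays to 5.0, 4.98 and 4.94 on the treated ones. Stra6, the membrane receptor that takes up retinol from its plasma carrier, rose by 6.01 ± 0.13, and Crabp2, which delivers retinoic acid to receptors, by 5.18 ± 0.08. These 3 genes had no overlap between groups. Crabp1, the second cytoplasmic carrier, went the other way and fell by 1.08 ± 0.11 (adjusted p = 9.0e-07).

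Of the genes that make retinoic acid, Aldh1a1 rose by 2.84 ± 0.26, Rdh10 by 1.69 ± 0.11 and Aldh1a3 by 1.10 ± 0.11. Aldh1a2, the embryo's main synthetic enzyme, rose by 0.55 ± 0.18 (adjusted p = 0.016), a call lost without treated replicate 4 (0.42, adjusted p = 0.085), without the arrays that the scanner software rated as needing evaluation, and under median centring, quantile normalisation, normexp and the authors' deposited table (adjusted p 0.057 to 0.24). The alcohol dehydrogenase Adh7 rose at least 8.41-fold and the plasma carrier Rbp4 by 0.45 ± 0.08, a call lost with median centring (0.30, adjusted p = 0.076). Lrat, which stores retinol as esters, was below background in untreated cells (adjusted p = 0.12). Fabp5, an alternative carrier, had a change of 0.08 ± 0.11 (adjusted p = 0.57), and the carotene-cleaving Bco1 was not well above background on any sh4 array.

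**Figure D1:**
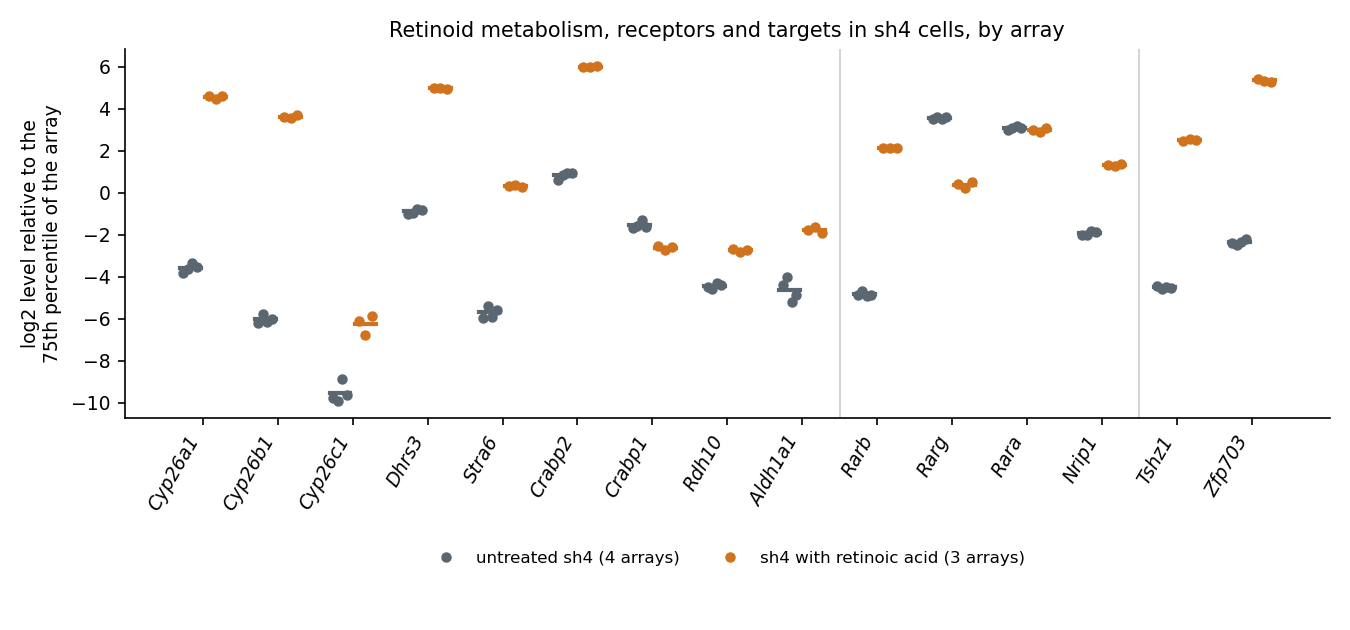
Log2 level relative to the 75th percentile of the array (vertical axis) of 15 genes of retinoid metabolism, receptors and targets, with 1 point for each array, 4 untreated and 3 treated with retinoic acid, and a bar at the mean. The 3 treated points of Cyp26a1, Cyp26b1, Dhrs3, Stra6, Rarb, Tshz1 and Zfp703 lie above the 4 untreated points, those of Rarg and Crabp1 lie below, and those of Rara overlap.

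Among the 12 receptors and cofactors, 3 rose, 5 fell and 4 did not pass, where 27.0% of all genes rose and 31.5% fell. Rarb lay at −4.88, −4.69, −4.92 and −4.85 on the untreated arrays and at 2.13, 2.12 and 2.13 on the treated ones, a rise of 6.96 ± 0.09 (adjusted p = 7.8e-15). Rarg lay at 3.53, 3.59, 3.51 and 3.59 and at 0.41, 0.22 and 0.52, a fall of 3.17 ± 0.09 (adjusted p = 6.4e-12). Rarb thus rose and Rarg fell with no overlap between groups, while Rara had a change of −0.09 ± 0.09 (adjusted p = 0.39). Rxra (−0.03 ± 0.13) and Rxrg (0.05 ± 0.38) did not pass. Rxrb fell by 0.27 (adjusted p = 0.022), a call lost without untreated replicate 3 (adjusted p = 0.062), without treated replicate 1 (adjusted p = 0.061) or without treated replicate 3 (adjusted p = 0.054), and its sign turned under quantile normalisation and in the authors' table.

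Of the cofactors, Nrip1, which represses receptors once ligand is bound, rose by 3.25 ± 0.08. The coactivator Ncoa2 rose by 0.63 ± 0.11, while Ncoa3 fell by 1.40 and Ncoa1 by 0.35. The corepressor Ncor1 fell by 0.75 (adjusted p = 0.0041).

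Of 16 other genes known as retinoic acid targets, 11 rose, 2 fell and 3 did not pass, with a median of 2.38. The zinc finger genes Zfp703 and Tshz1 led. Tshz1 lay at −4.41, −4.59, −4.47 and −4.51 on the untreated arrays and at 2.48, 2.58 and 2.50 on the treated ones (7.01 ± 0.09, adjusted p = 4.2e-15). The orphan receptors Nr2f1 (5.03 ± 0.12) and Nr2f2 (4.81 ± 0.25), the meiotic gatekeeper Stra8 (3.09 ± 0.33), the chemokine-like Rarres2 (2.94 ± 0.14), the pioneer factor Foxa1 (2.90 ± 0.07), the transglutaminase Tgm2 (2.82 ± 0.07), the receptor kinase Ret (1.93 ± 0.08), the caudal factor Cdx1 (1.81 ± 0.15) and the adaptor Skap2 (0.64 ± 0.06) rose with it. Cdx2 fell by 2.07 ± 0.15. Wnt8a fell by 1.08 (adjusted p = 0.019), a call lost without treated replicate 3 (−1.03, adjusted p = 0.055). Egr1 (−0.35 ± 0.31) and Gbx2 (−0.26 ± 0.26) did not pass.

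Hox genes rose in all 4 clusters. Of 39 on the array, 37 were tested, of which 32 rose, none fell and 5 did not pass, and 11 of the 37 were kept through 1 sh4 group only. The median log2 change was 6.20 over 8 genes of groups 1 to 3, 7.32 over 7 genes of groups 4 and 5, 4.73 over 8 genes of groups 6 to 8 and 1.29 over 14 genes of groups 9 to 13. With normexp background correction these medians were 4.27, 5.15, 3.24 and 0.21, and 5 of the 14 posterior genes rose in place of 10. No Hox gene passed as lower in these values, but 1 of groups 9 to 13 did under quantile normalisation, median centring, the authors' table, or without untreated replicate 3.

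In groups 1 to 3, 8 of 8 genes rose. Hoxb2 lay at −6.83, −6.23, −6.92 and −6.56 on the untreated arrays and at 3.22, 3.19 and 3.16 on the treated ones. Its groups did not overlap, with a change of 9.83 ± 0.12. Hoxa2 rose at least 102-fold and Hoxd3 at least 21.7-fold, both from below background. Hoxa3 rose by 6.48 ± 0.12, Hoxb3 by 5.26 ± 0.46 and Hoxd1 by 2.87 ± 0.17.

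In groups 4 and 5, 7 of 7 genes rose, Hoxb4 by 7.80 ± 0.14, Hoxc5 by 7.32 ± 0.30, Hoxc4 by 6.18 ± 0.07, Hoxa4 by 4.59 ± 0.28 and Hoxd4 by 4.53 ± 0.21, beside Hoxb5 and Hoxa5. Hoxb4 lay at −4.78, −5.29, −5.30 and −5.17 on the untreated arrays and at 2.84, 2.38 and 2.77 on the treated ones, without overlap. In groups 6 to 8, 7 of 8 rose: Hoxb8, then Hoxb6 (7.61 ± 0.27), Hoxc6 (5.54 ± 0.15), Hoxc8 (4.86 ± 0.29), Hoxb7 (4.59 ± 0.07), Hoxa7 (3.13 ± 0.08) and Hoxd8 (2.83 ± 0.09). Hoxa6 did not pass (0.72 ± 0.32, adjusted p = 0.072).

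The posterior groups were mixed. Hoxc9 (6.50 ± 0.09), Hoxb9 (4.95 ± 0.12) and Hoxb13 (4.54 ± 0.08) rose by amounts like those of anterior genes. Hoxb13 lay at −3.09, −2.94, −3.01 and −3.03 on the untreated arrays and at 1.51, 1.49 and 1.58 on the treated ones, which do not overlap. Hoxd9 rose by 2.77 ± 0.20, Hoxa10 by 1.73 ± 0.35, Hoxd11 by 1.44 ± 0.18, Hoxd10 by 1.14 ± 0.30, Hoxa11 by 1.07 ± 0.18 and Hoxd13 by 0.87 ± 0.14, and Hoxc10 at least 3.44-fold. Calls for Hoxa10, Hoxa11, Hoxc10, Hoxd10 and Hoxd11 were lost with normexp. Hoxa9, Hoxa13, Hoxc12 and Hoxc13 did not pass, with changes from −0.79 to 0.31, although Hoxa13 passed as higher with its probes averaged (0.93, adjusted p = 0.021). Hoxc11 and Hoxd12 were not well above background on enough arrays to be tested.

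**Figure D2:**
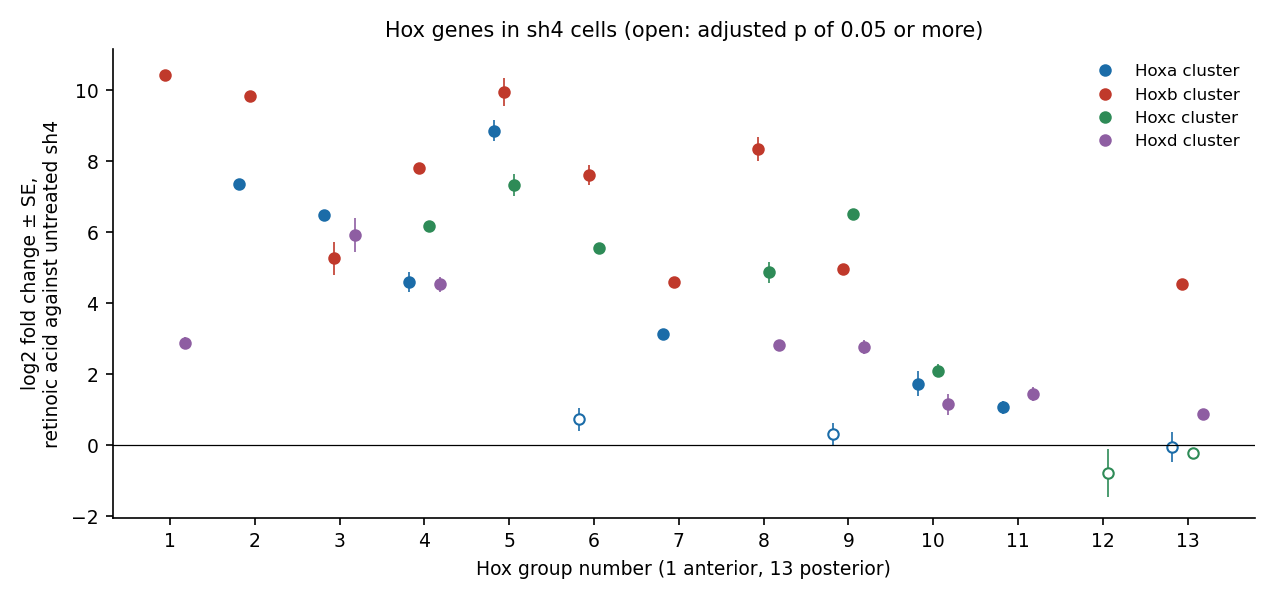
Log2 fold change ± SE with retinoic acid in sh4 cells (vertical axis) of 36 of the 37 tested Hox genes against their group number (horizontal axis), coloured by cluster, with open circles for the 5 genes that did not pass. Changes reach 10.44 at Hoxb1 and 9.95 at Hoxb5, and genes of groups 10 to 13 lie at or below 2.10 except Hoxb13 at 4.54.

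Hox proteins bind DNA with Meis, Pknox and Pbx partners. Of these 9 cofactors 7 rose and 2 did not pass. Meis1 rose by 4.96 ± 0.10, Meis2 by 3.62 ± 0.07, Meis3 by 2.11 ± 0.18, Pknox2 by 1.52 ± 0.11, Pbx2 by 1.43 ± 0.10 and Pbx3 by 1.18 ± 0.08. Pknox1 (0.21 ± 0.08) and Pbx4 (−0.26 ± 0.13) did not pass.

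The core of the pluripotency network fell: 14 of 14 members were lower, with a median of −1.73. Pou5f1 (Oct4), the central stem cell factor, lay at 4.07, 4.42, 4.45 and 4.43 on the untreated arrays and at −0.57, −0.79 and 0.09 on the treated ones. Nanog lay at 4.99, 4.74, 4.87 and 4.80 and at −1.36, −1.32 and 0.05. Sox2, the partner of Pou5f1, lay at 3.25, 3.02, 3.03 and 2.92 and at −1.59, −1.66 and −1.21. The groups did not overlap in any of these genes, which fell by 4.77 ± 0.22, 5.72 ± 0.26 and 4.54 ± 0.12, although the dimmer Nanog probe gave −0.51.

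Utf1 (−4.13 ± 0.10), L1td1 (−3.17 ± 0.15), Zscan10 (−3.07 ± 0.08) and Dppa4 (−1.94 ± 0.09) fell strongly. Smaller falls were those of Trim28 (−1.52 ± 0.09), Sall4 (−1.36 ± 0.11), Trim71 (−1.28 ± 0.11), Tdgf1 (−1.27 ± 0.32, with other probes down to −7.46), Zfp281 (−1.11 ± 0.06), Lin28a (−0.71 ± 0.14) and Dppa2 (−0.47 ± 0.11). Dppa2 arrays overlapped between groups, and within slide 3 its change was 0.01.

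Markers of the naive, ground state of pluripotency fell further: 19 of 22 were lower, 1 was higher and 2 did not pass, with a median of −3.71. Fgf4, Esrrb, Nr0b1 and Prdm14 led, and Zfp42 (Rex1) fell by 4.25 ± 0.17. Esrrb lay at 5.67, 5.52, 5.60 and 5.59 on the untreated arrays and at −2.03, −2.14 and 0.44 on the treated ones. Treated replicate 4 thus stood well above treated replicates 1 and 3, as it did in Fgf4, Foxd3 and Tdh. The same held for Nr0b1 (−2.16 against −3.87 and −3.95) and Prdm14 (−3.84 against −5.67 and −5.53). In Otx2 the treated arrays lay closer together, and the reason for the gap was not tested. The receptor chains for the cytokine LIF, Lifr (−0.09 ± 0.10) and Il6st (0.11 ± 0.09), did not pass. Lifr turned to 0.50 and passed as higher when its probes were averaged (adjusted p = 5.2e-06). Tbx3 was the member that rose (0.19 ± 0.07, adjusted p = 0.042), a call lost without untreated replicate 1, 3 or 4 or treated replicate 1 or 4 (adjusted p 0.054 to 0.131).

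Of 18 genes of the primed epiblast, 12 fell, 5 rose and 1 did not pass (median −1.77). Otx2 lay at 1.86, 2.02, 2.22 and 2.07 on the untreated arrays and at −4.89, −4.76 and −4.56 on the treated ones, without overlap. Foxd3 and Etv5 (−5.79 ± 0.22) fell with it, as did Zic5 (−3.86 ± 0.25). Sox4 (2.39 ± 0.15) and Sall2 (2.27 ± 0.30) had the largest rises.

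**Figure D3:**
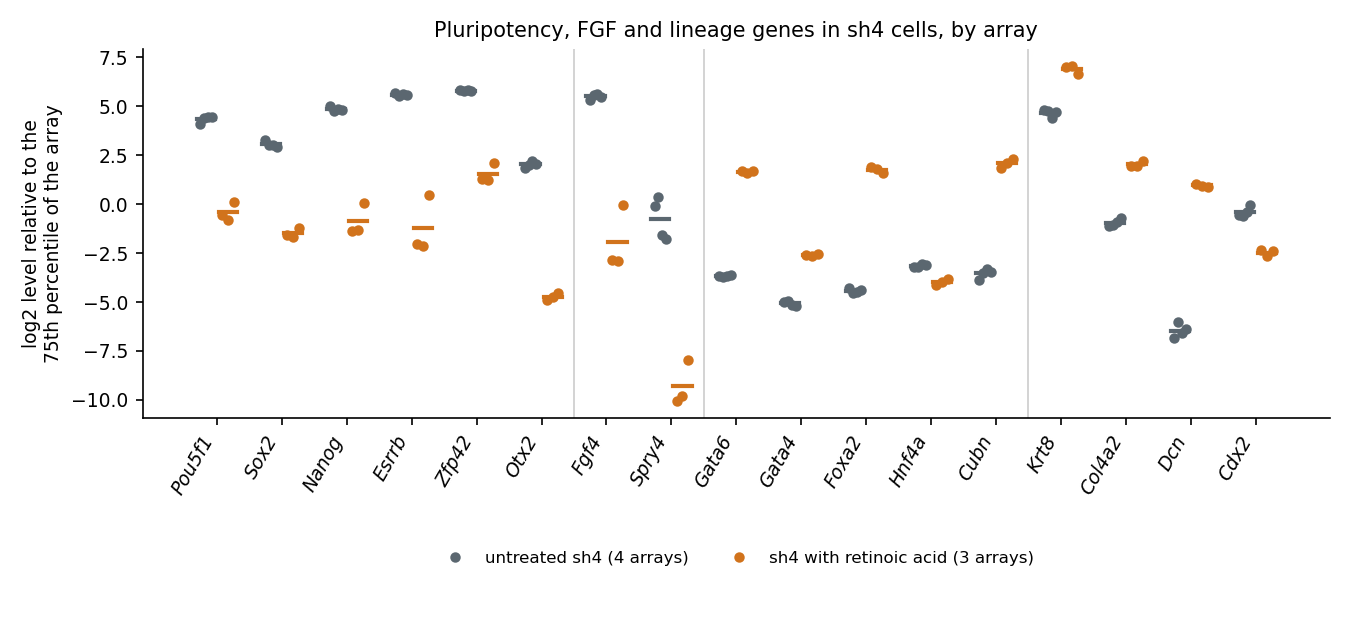
Log2 level relative to the 75th percentile of the array (vertical axis) of 17 genes of pluripotency, FGF signalling and differentiated lineages, with 1 point for each of the 4 untreated and 3 treated sh4 arrays and a bar at the mean. The treated points of the 8 genes from Pou5f1 to Spry4 lie below the untreated ones, and those of Gata6, Gata4, Foxa2, Cubn, Krt8, Col4a2 and Dcn lie above.

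Phf19 fell further in sh4 cells given retinoic acid. It lay at −2.61, −2.54, −2.51 and −2.54 on the untreated arrays and at −3.90, −3.97 and −3.71 on the treated ones, a fall of 1.31 ± 0.09 (adjusted p = 3.7e-08), without overlap. In shCTR cells Phf19 fell by 2.16, and the responses differed by 0.85 ± 0.13 (adjusted p = 3.6e-04).

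Of the 12 PRC2 subunits, Phf19 included, 10 were lower and 2 higher, with a median of −1.15. Jarid2, which brings PRC2 to its targets in stem cells, fell by 1.77, and Mtf2 by 1.60, Aebp2 by 1.61 and Epop by 1.18. Of the core, Eed fell by 1.49 ± 0.08, Suz12 by 1.11 ± 0.08 and the methyltransferase Ezh2 by 0.66 ± 0.06, its paralog Ezh1 by 1.01. Ezh2 lay at 2.86, 2.77, 2.84 and 2.72 on the untreated arrays and at 2.12, 2.19 and 2.11 on the treated ones, a small shift without overlap. The histone chaperone Rbbp7 rose by 0.93 ± 0.17. Phf1, a paralog of Phf19, rose by 0.45 ± 0.14, a call lost without treated replicate 3 (adjusted p = 0.067). Rbbp4 fell by 0.32 (adjusted p = 0.043), a call lost with slide as a block and without 5 of the 7 arrays, untreated replicates 1, 3 and 4 and treated replicates 3 and 4 (adjusted p 0.075 to 0.141).

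Of 21 PRC1 subunits 9 rose, 9 fell and 3 did not pass. The chromodomain subunit Cbx8 (3.85 ± 0.49) rose, and Phc1 (−3.35 ± 0.09) and L3mbtl2 (−1.44 ± 0.13) fell. Among 14 enzymes of histone lysine methylation, 4 rose, 3 fell and 7 did not pass, where 27.0% of all genes rose and 31.5% fell. The largest changes were those of Nsd2 (1.75 ± 0.07), Kdm4c (−2.0 ± 0.09) and Nsd1 (−1.75 ± 0.25). Of 9 DNA methylation and Tet enzymes 6 fell, with Tet1 at −3.11 ± 0.12 and Dnmt3b at −2.09 ± 0.07, 1 rose, Dnmt3a at 1.03 ± 0.07, and 2 did not pass.

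Regulators of primitive endoderm, the embryo's yolk sac lineage, rose in 11 of 15 cases, with 2 lower and 2 not passing (median 3.75). Gata6 lay at −3.66, −3.71, −3.68 and −3.64 on the untreated arrays and at 1.68, 1.60 and 1.71 on the treated ones. Foxa2 lay at −4.26, −4.55, −4.49 and −4.41 and at 1.91, 1.78 and 1.58. Both rose without overlap (5.34 ± 0.08 and 6.18 ± 0.11), together with Pdgfra (5.03 ± 0.06), Sox17 (4.59 ± 0.12), Sox7 (3.78 ± 0.07) and Gata4 (2.47 ± 0.08). Hnf4a, which drives the later visceral endoderm programme, fell by 0.83 ± 0.11, from −3.20, −3.20, −3.03 and −3.13 to −4.13, −3.98 and −3.80, and Eomes fell by 0.58. Cited1 did not pass (0.12 ± 0.08).

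Visceral endoderm products were less uniform: 10 of 20 rose, 4 fell and 6 did not pass, with a median of 0.43. The thyroxine carrier Ttr rose at least 18.2-fold from below background, where alpha-fetoprotein (Afp) also started before it rose (adjusted p = 7.9e-11), the endocytic receptor Cubn by 5.62 ± 0.13 and the metal transporter Slc39a8 by 1.82 ± 0.17. The apolipoproteins Apoe (−3.32 ± 0.11) and Apoc2 (−1.83 ± 0.16) fell, while Apoa4 (−0.08 ± 0.32) and Amn, the partner of Cubn, (0.08 ± 0.11) did not pass. Of 17 basement membrane and parietal endoderm genes 11 rose, 3 fell and 3 did not pass (median 2.07). The plasminogen activator Plat (6.84 ± 0.45), the receptor Pth1r (4.18 ± 0.11), the collagen chaperone Serpinh1 (3.68 ± 0.07) and Col4a2 (2.99 ± 0.14) had the largest rises. Lamc1 did not pass (0.02 ± 0.09), and Nid2 fell by 0.62, a call lost without treated replicate 1 (adjusted p = 0.099) whose sign turned within slide 3 (0.06).

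Of 22 tested genes of the streak and mesoderm 11 were higher and 10 lower. Osr1, of intermediate mesoderm, rose at least 22.9-fold, and Foxc2 rose by 5.89 ± 0.13. Tcf15 (−4.86 ± 0.14), Evx1 (−2.95 ± 0.28) and Mesp1 (−1.85 ± 0.18), of the early streak and its first mesoderm, fell. Of 29 neural genes 10 were higher, 10 lower and 9 did not pass, shares near the 27.0% and 31.5% of all genes. Dcx, of migrating neuroblasts, rose at least 12.6-fold, Irx3 by 4.93 ± 0.11 and the progenitor filament Nes by 2.64 ± 0.12. The neuronal genes Stmn2 (−5.69 ± 0.20), Neurod1 (−3.11 ± 0.35), Elavl3 (−2.76 ± 0.10) and Nefl (−2.35 ± 0.08) fell, and Pax6 did not pass (0.05 ± 0.14).

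Of 19 trophectoderm and placental genes 12 rose, 6 fell and 1 did not pass. Plac1 (4.40 ± 0.09), Esx1 (3.93 ± 0.15), Krt7 (2.79 ± 0.12) and Gata3 (2.56 ± 0.11) rose, and the trophoblast factors Cdx2 and Tfap2c (−1.70 ± 0.07) fell. Of 19 endothelial and blood genes 5 rose, 9 fell and 5 did not pass. The endothelial cadherin Cdh5 rose at least 3.73-fold and the receptor Flt1 by 2.53 ± 0.08, while Tek (−2.21 ± 0.15) and Pecam1 (−2.02 ± 0.13), which stem cells also express, fell.

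Fibroblast genes, listed as markers of feeder cells, rose in 16 of 18 tested cases and fell in 2 (median 3.04), of 23 listed and 22 on the array. Their signals, each divided by the 75th percentile of the array, summed to 49.2 to 54.5 on the untreated arrays and to 117 to 123 on the treated ones. Of the 6 defining markers, Col3a1 was well above background on 1 and Lum on 2 of the 4 untreated arrays, and the others on all 4. Dcn rose by 7.41 ± 0.22, Col3a1 by 6.13 ± 0.15, Acta2 by 5.77 ± 0.16, Col1a1 by 4.61 ± 0.18, Col1a2 by 4.08 ± 0.24 and Lum by 2.38 ± 0.34. Thy1 (−0.82 ± 0.11) and Fn1 (−1.08 ± 0.07) fell. Several of these genes are also expressed by mesenchyme and parietal endoderm, and the part of feeder cells in the results was not tested.

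Epithelial genes changed in both directions. All 6 simple keratins were higher, led by Krt20 (5.76 ± 0.09), Krt19 (3.33 ± 0.20) and Krt7. Krt8 and Krt18, named after their values were seen, rose by 2.22 ± 0.11 and 1.89 ± 0.14. Of 15 claudin and tight junction genes 8 rose, 2 fell and 5 did not pass, among them Cldn8, higher at least 4.28-fold, Cldn6 (1.01 ± 0.08) and Tjp3 (−1.38 ± 0.14). Of 16 genes of the cadherin switch 9 rose, 3 fell and 4 did not pass. N-cadherin, Cdh2, rose by 2.96 ± 0.11 and Snai1, which represses epithelial genes, by 2.13 ± 0.08, while the epithelial splicing factor Esrp1 fell by 1.67. E-cadherin, Cdh1, had a change of −0.02 ± 0.07 (adjusted p = 0.82) and passed as higher under quantile normalisation (0.20, adjusted p = 0.039).

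**Figure D4:**
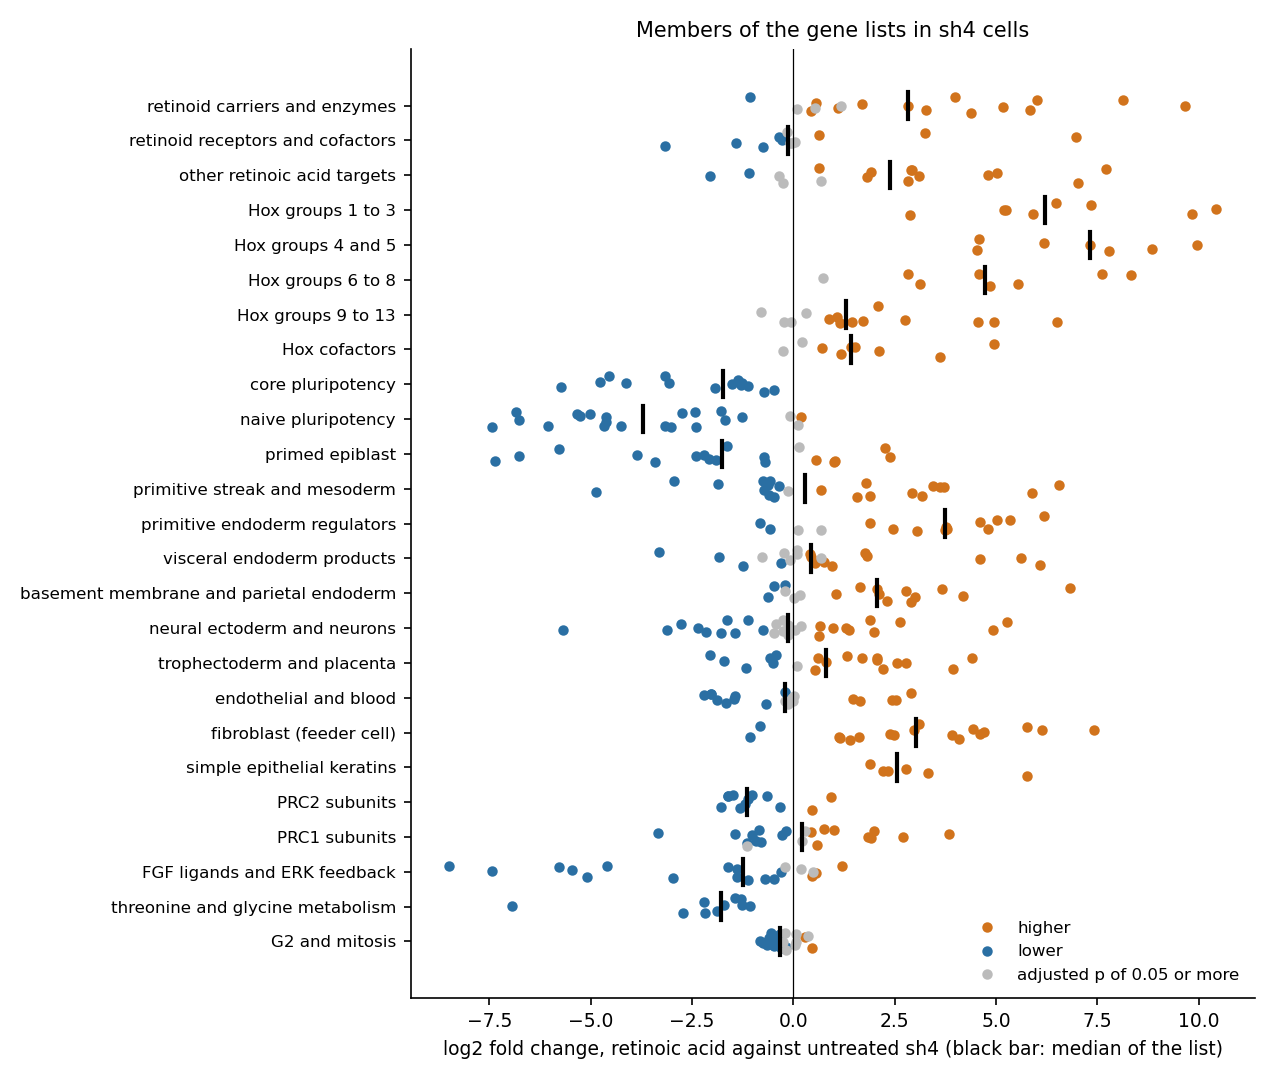
Log2 fold change with retinoic acid in sh4 cells (horizontal axis) of the tested members of 25 gene lists (rows), with 1 point for each gene, coloured as higher, lower or not passed, and a black bar at the median of the list. Medians run from −3.71 for naive pluripotency to 7.32 for Hox groups 4 and 5.

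FGF signalling genes fell in 14 of 20 cases, with 3 higher and 3 not passing (median −1.25). Fgf4 is the ligand that stem cells secrete, and Spry4 and Etv5 are read out by its ERK cascade. Fgf4 lay at 5.32, 5.57, 5.62 and 5.49 on the untreated arrays and at −2.87, −2.92 and −0.03 on the treated ones, with no overlap. Fgf17 fell by 5.47 and the receptor Fgfr2 rose by 1.20 ± 0.23. In the Nodal and activin pathway 7 of 20 rose, 9 fell and 4 did not pass: Gdf3 (−5.33 ± 0.15), Inhbb (−4.43 ± 0.31) and the inhibitor Lefty1 (−3.57 ± 0.09) fell. BMP ligands and targets rose in 14 of 19 cases and fell in 2, with the ligand Bmp2 at 4.54 ± 0.14, its target Id3 at 2.88 ± 0.34 and Id4 at −1.33 ± 0.08. Of 25 Wnt genes 13 rose, 6 fell and 6 did not pass. The receptor Lgr5 rose at least 24.5-fold, its ligand Rspo3 by 4.71 ± 0.12 and the Wnt inhibitor Dkk1 by 4.08 ± 0.13, and Fzd5 fell by 1.60.

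Of 26 genes of G2 and mitosis 17 fell, 2 rose and 7 did not pass (median −0.33), with Ccnb1 at −0.82 ± 0.13 and Top2a at −0.76 ± 0.09. Of 8 CDK inhibitors 7 rose and 1 did not pass: the adjacent Polycomb targets Cdkn2b (3.58 ± 0.48) and Cdkn2a (1.95 ± 0.10) and Cdkn2c (2.80 ± 0.17) led, with a list median of 1.21. Among 24 p53 targets 10 rose and 6 fell, with Fas at 3.03 ± 0.16 and Gdf15 at −2.60 ± 0.15. The 10 genes of threonine and glycine metabolism fell, with a median of −1.79, among them Gldc (−2.71 ± 0.08). Tdh lay at 5.60, 5.70, 5.73 and 5.64 on the untreated arrays and at −2.09, −1.97 and 0.28 on the treated ones, the 2 groups far apart.

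Glycolytic and hypoxia genes fell in 18 of 25 cases and rose in 5, with Pfkp at −3.33 ± 0.20, Hk2 at −1.55 ± 0.06 and the collagen hydroxylase P4ha1 at 2.31 ± 0.10. Of 24 sterol and fatty acid genes 13 did not pass, 6 rose and 5 fell (Scd2 1.83 ± 0.07, Idi1 −0.78 ± 0.10), where 27.0% of all genes rose and 31.5% fell. Of 21 stress genes 10 fell and 6 rose, with Chac1 at −3.68 ± 0.13, Nupr1 at −3.17 ± 0.15 and Atf3 at 3.08 ± 0.12. Interferon-stimulated genes rose in 15 of 24 cases and fell in 6, led by Cxcl10 (4.90 ± 0.13), Usp18 (4.14 ± 0.14) and Ifi27 (3.76 ± 0.08), with Oas1a at −1.81 ± 0.11.

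Of 24 imprinted genes 15 rose, 4 fell and 5 did not pass. Dlk1 rose by 4.74 ± 0.12, Peg3 by 3.99 ± 0.08 and H19 by 3.66 ± 0.10 on its brightest probe, with 0.07 on the other, and Phlda2 fell by 1.21. Of 22 germ cell genes 10 rose and 8 fell, with the homeobox genes Rhox6 (3.30 ± 0.10) and Rhox9 (3.05 ± 0.10) up and Sycp3 (−2.26 ± 0.08) down. Of 15 genes of the 2-cell-like state 11 rose and 3 fell (median 2.99). The near-identical Tdpoz3 (4.49 ± 0.13) and Tdpoz4 (4.19 ± 0.13) and Tdpoz1, higher at least 5.57-fold, may share probe signal, and Pramel6 fell by 1.29.

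The response of sh4 cells was then set against that of shCTR cells, in which 15641 genes (62.3%) changed, 28.9% of all genes higher and 33.4% lower. Of the genes that changed in sh4, 12532 changed the same way in shCTR, which is 85.3% of the sh4 changes and 80.1% of the shCTR changes, and 335 changed in the opposite direction. The difference between the responses passed for 5109 genes (20.4%), 2558 positive (10.2%) and 2551 negative (10.2%), and for 2956 when arrays were centred on their median and 3044 with normexp. At least 2-fold differences were more often negative, 985 (3.93%) against 493 (1.96%). Of 3242 genes that changed the same way with a difference past the threshold, the change was smaller in sh4 for 2018 and larger for 1224.

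A difference in response can lie in the level before treatment or in the level with it. Of all 2551 negative differences, the untreated mean was higher in sh4 for 2135 and the treated mean lower in sh4 for 1834. Of the 2558 positive ones, the untreated mean was lower in sh4 for 2330 and the treated mean higher for 1886.

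The 7 genes below, among the largest negative differences, stood higher in untreated sh4 than in untreated shCTR cells. Slc23a1, the vitamin C transporter, fell at least 50.2-fold in sh4 with a shCTR change of −0.21 (difference −5.51 ± 0.21), and the neural factor Olig3 fell at least 25.6-fold against −0.17 (−5.34 ± 0.35). Their untreated means were −2.18 and −3.20 in sh4 against −5.77 and −5.45 in shCTR. The alarmin Il33 changed by 2.34 and 7.72 (−5.38 ± 0.23), from −3.89 and −6.52, and the lysophospholipase Enpp2 by −3.64 and 1.69 (−5.33 ± 0.17), from −1.17 and −4.91, in sh4 and shCTR in turn. Cdx2 fell in sh4 from −0.41 and rose by 2.64 in shCTR from −4.57 (−4.71 ± 0.21, adjusted p = 1.0e-08). Clic5 and Gbp3 were not well above background on any untreated shCTR array, so that their shCTR rises are bounds, at least 77.7-fold and 61.5-fold, against rises of 0.94 and 1.51 on the log2 scale in sh4. With retinoic acid Gbp3 stood at −1.24 in sh4 and −1.89 in shCTR.

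Of the 8 highest fitted positive differences, those of Adgrd1 (3.42 ± 0.28), Nkx6-3 (3.31 ± 0.46), Kng2 (2.87 ± 0.34) and the cadherin Cdh22 (2.82 ± 0.27) had at least 1 array well above background in every group. Adgrd1 and Nkx6-3 fell less in sh4, by 1.66 and 4.26 against 5.08 and 7.57 in shCTR. The untreated means of both genes were lower in sh4 than in shCTR. Nkx6-3 was well above background on only 1 treated array of each hairpin, with treated means of −7.26 in sh4 and −7.96 in shCTR. The sizes of the Nkx6-3 falls and of their difference thus rest partly on background signal. The other Nkx6-3 probe fell by 2.04 in sh4. Spink8, Cldn8 and Hoxd3os1 were well above background only on the treated sh4 arrays, where they rose at least 2.77-fold, 4.28-fold and 3.13-fold, and Cdh23 only on the untreated shCTR arrays, with an sh4 change of 0.29 (adjusted p = 0.66). The sh4 calls of Spink8, Kng2 and Hoxd3os1 were lost with normexp, as were the differences of Cdh23, Cldn8, Hoxd3os1 and Kng2.

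Many endoderm genes rose less in sh4 cells. Differences were negative for 14 of 20 visceral endoderm products and positive for 1, with list medians of 0.43 in sh4 and 1.96 in shCTR. Among basement membrane genes they were negative for 12 of 17 and positive for 1, among regulators of primitive endoderm negative for 9 of 15 and positive for 3. In each of these 14, 12 and 9 genes the treated mean was lower in sh4 than in shCTR, and the untreated mean was higher in sh4 in 5, 4 and 3. Ttr, below background in both untreated groups, rose at least 194-fold in shCTR against at least 18.2-fold in sh4. Col4a2 changed by 4.91 in shCTR (difference −1.92 ± 0.19), Lamc1 by 1.79 (−1.77 ± 0.12), Hnf4a by 0.83 (−1.66 ± 0.15), Cited1 by 3.22 (−3.10 ± 0.11) and Gata4 by 4.16 (−1.69 ± 0.11). Gata6 rose more in sh4 (0.59 ± 0.11), a call lost with normexp and in the authors' table (adjusted p 0.355 and 0.338), and Pdgfra did too (0.85 ± 0.08) but less with normexp (−0.44) or the authors' table (−0.52). In the 3 regulators of primitive endoderm with a positive difference, the untreated and the treated means were both lower in sh4. With retinoic acid Gata6 stood at 1.66 in sh4 and 2.98 in shCTR, from −3.67 and −1.77. Pdgfra stood at −1.28 and 0.29, from −6.32 and −3.89.

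Of 6 keratins 4 had a negative difference and 1 a positive one, with medians of 2.56 in sh4 and 5.71 in shCTR. Krt18 rose by 1.89 in sh4 and 5.86 in shCTR (−3.98 ± 0.19) and Krt8 by 2.22 and 5.91 (−3.69 ± 0.15), so that with retinoic acid Krt8 stood at 6.89 in sh4 and 6.89 in shCTR, from 4.67 and 0.98 untreated. Of the 4 keratins with a negative difference, 4 had the higher untreated mean in sh4 and 2 the lower treated mean. Krt20 showed a difference of −0.14 (adjusted p = 0.54). Placental Plac1 (−3.71 ± 0.12), Krt7 (−2.70 ± 0.17), endothelial Flt1 (−3.11 ± 0.10), the chemokine Cxcl10 (−3.89 ± 0.18), Cldn6 (−3.03 ± 0.12) and Nefl (−2.51 ± 0.11) went the same way. Each of them had the higher untreated mean in sh4. With retinoic acid Krt7 (1.56 against 0.24) and Cldn6 (2.03 against 1.69) stood higher in sh4 than in shCTR, and Plac1, Flt1, Cxcl10 and Nefl lower.

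Over 37 Hox genes the difference was positive for 12, negative for 3 and short of the threshold for 22, with 2 positive and 2 negative among the 8 of groups 1 to 3. The untreated mean was lower in sh4 for all 12 positive genes and higher for the 3 negative ones. The treated mean was higher in sh4 for all of them except Hoxa11 (−7.01 against −6.54). Hoxb2 stood at −6.64 in sh4 and −5.54 in shCTR untreated, and at 3.19 and 2.60 treated. Hoxb2 rose by 9.83 in sh4 and 8.14 in shCTR (1.68 ± 0.17), Hoxc4 by 6.18 and 4.58 (1.60 ± 0.09), Hoxb4 by 7.80 and 6.68 (1.12 ± 0.19) and Hoxb7 by 4.59 and 3.44 (1.14 ± 0.10). Hoxa2 had a difference of −0.52 ± 0.12, which rests on untreated signal below background in both hairpins, was lost with median centring and turned to 0.85 with normexp and 0.68 in the authors' table. The partners Meis1 (−0.88 ± 0.13) and Meis2 (−1.82 ± 0.09) rose less in sh4, from higher untreated means. With retinoic acid Meis1 stood at 3.78 in sh4 and 3.54 in shCTR, from −1.18 and −2.30. Meis2 stood at 2.31 and 1.80, from −1.31 and −3.64.

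In the retinoid lists Cyp26a1 (−1.22 ± 0.17) and Rdh10 (−1.0 ± 0.15) rose less in sh4, and Dhrs3 (0.64 ± 0.11), Crabp2 (0.73 ± 0.11), Rarb (0.73 ± 0.13), Stra8 (2.17 ± 0.46) and Tgm2 (0.67 ± 0.09) rose more. With retinoic acid Cyp26a1 stood at 4.57 in sh4 and 4.63 in shCTR, from −3.56 and −4.73 untreated. In the same order, Stra8 stood at 5.93 and 5.88, from 2.84 and 4.95. Rarb stood at 2.13 and 2.18, from −4.83 and −4.06, and Tgm2 at 2.66 and 2.76, from −0.17 and 0.60. Treated Crabp2 (6.02 and 4.97) and Dhrs3 (4.97 and 4.59) were higher in sh4. The differences of Cyp26a1, Rdh10 and Rarb were lost with normexp (adjusted p 0.0502, 0.0638 and 0.0506), and that of Rarb also with probes averaged (0.43, adjusted p = 0.165). Stra6 differed by −0.03 (adjusted p = 0.97). Among stem cell genes Pou5f1 (−1.63 ± 0.30), L1td1 (−1.40 ± 0.21), Otx2 (−2.03 ± 0.14), Tdh (−2.23 ± 0.56), Dnmt3b (−1.72 ± 0.10) and Lefty1 (−1.71 ± 0.13) fell further in sh4, a call lost for Tdh without the arrays rated for evaluation (adjusted p = 0.0871), and Sox2 fell less (1.01 ± 0.16). Lin28a fell in sh4 and had a change of 0.36 in shCTR (−1.08 ± 0.19). Untreated Dnmt3b, Otx2, Lefty1 and Lin28a stood higher in sh4, at 5.28, 2.04, 2.09 and 3.53 against 3.99, 0.87, 1.40 and 2.73. Their treated means were 3.19, −4.73, −1.48 and 2.81 in sh4 against 3.62, −3.87, −0.45 and 3.09. Untreated Pou5f1 and Tdh stood lower in sh4, and L1td1 at 5.91 against 5.83. With retinoic acid Pou5f1, Tdh and L1td1 stood lower in sh4. Of the 12 PRC2 subunits, Phf19 alone had a difference past the threshold.

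**Figure D5:**
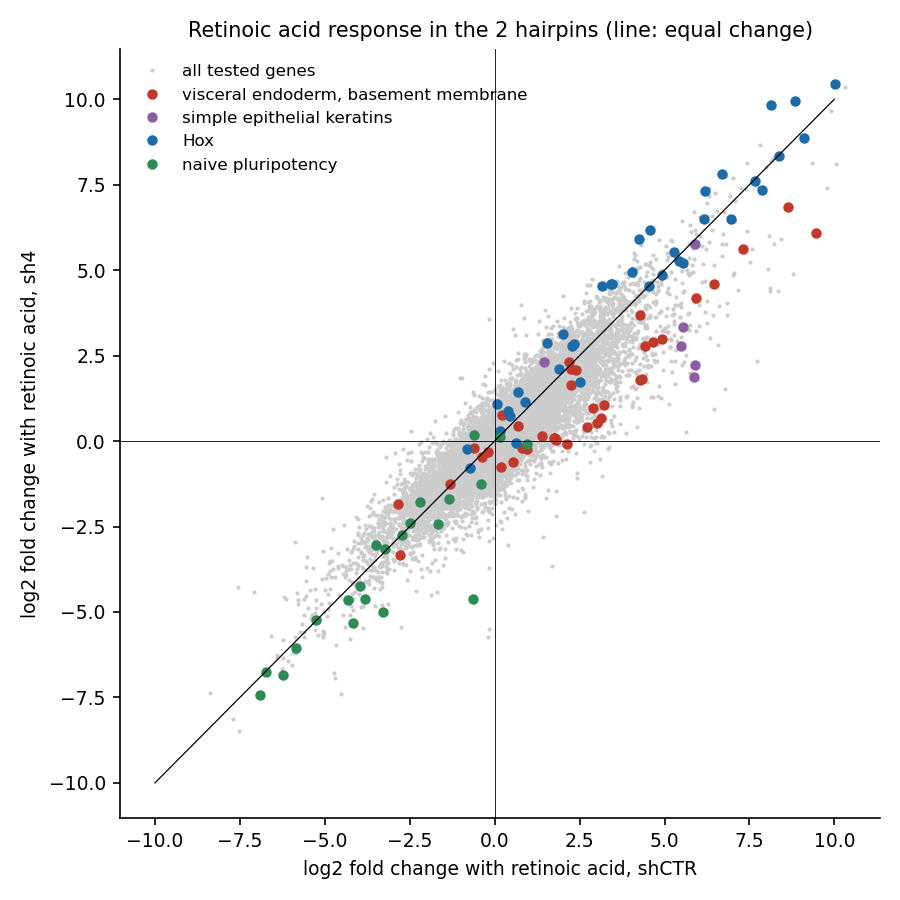
Log2 fold change with retinoic acid in shCTR cells (horizontal axis) against that in sh4 cells (vertical axis) for the 25090 tested genes (grey), with endoderm and basement membrane, keratin, Hox and naive pluripotency genes coloured and a line of equal change. Most endoderm and basement membrane genes and 5 of the 6 keratins lie below the line, and most Hox genes lie on or above it.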

How the data were processed

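Total RNA of mouse embryonic stem cells was labelled with Cy3 and hybridised to 1-colour Agilent arrays, per the labels' protocols. Per the file headers, the authors extracted spot intensity with Agilent Feature Extraction 10.7.3.1, whose processed signal is background-corrected on a linear scale. A table of log2 values that the authors deposited beside the scanner files matched normexp correction and quantile normalisation of the same signals (median absolute difference 3.43e-10) and served as an alternative.

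From 43020 non-control spots, spots marked as uneven or outlying were dropped, spots of a probe averaged (39312 probes), log2 taken and the 75th percentile of each array subtracted. Probes stayed in where 3 or more arrays of any group were well above background, and the brightest kept probe stood for a gene (25090 genes). Of 5097 genes with several kept probes, 1123 had probes that pointed in opposite directions. RefSeq (GRCm38.p6) names were found for 26055 of 39429 probes and the files' names kept for 13374. One limma 3.58.1 model (R 4.3.3) over 4 groups and 15 arrays gave each contrast, two-sided, with Benjamini-Hochberg adjustment over all genes. On simulated data for the sh4 comparison over 25090 genes it recovered 69% of 2-fold and 89% of 4-fold changes, with 4.82% false calls. The simulation changed 200 genes with noise independent between genes and arrays. Far more genes changed in the data and arrays shared slides, so these rates do not carry over to the real comparison. The number of arrays limits precision.

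Replicate numbers were not used to pair the samples. Same-numbered arrays deviated together with correlations of 0.20, −0.53 and 0.53, and arrays of the same slide with 0.20, 0.61 and 0.53. Slide enters these values, so they cannot tell whether same-numbered samples came from the same culture. The members and the 41 lists (701 genes, 693 on the array, 670 tested) were chosen with earlier results of these data known, and list counts support nothing beyond themselves. Named were Phf19, the 15 largest rises and falls without overlap between arrays (no clone or predicted names), any member of the retinoid, receptor, target, Hox, cofactor, PRC2 and core pluripotency lists, up to 4 rises, 4 falls and 2 others of each other list, its defining markers, and the 8 largest differences each way; a few genes under this rule are not reported here but count in the totals. Alternatives were other normalisations, background corrections, filters, probe rules, the deposited table, sh4 arrays alone, slide or replicate blocks, and left-out arrays.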

Additional observations from a re-analysis of the deposited data

Results flagged for a closer look

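The response of 136 of the 270 named genes differed between the hairpins by the test of the difference itself (limma, adjusted p under 0.05), where 20.4% of all tested genes passed. Some of the named genes were chosen by that difference. Each value below is the log2 response in sh4 cells minus that in shCTR cells. The difference was negative in Slc23a1 (−5.51), Clic5 (−5.50), Il33 (−5.38), Olig3 (−5.34), Enpp2 (−5.33), Gbp3 (−5.26), Cdx2 (−4.71), Krt18 (−3.98), Cxcl10 (−3.89) and Plac1 (−3.71). A negative difference was also found for Krt8 (−3.69), Wnt8a (−3.51), Ttr (−3.39), Flt1 (−3.11), Cited1 (−3.10) and Cldn6 (−3.03). The test gave a negative difference in Krt7 (−2.70), Esrp1 (−2.56), Slc39a8 (−2.51), Nefl (−2.51), Acta2 (−2.44), Dcn (−2.37), Tdh (−2.23), Krt19 (−2.23), Apoa4 (−2.21) and Otx2 (−2.03). It was negative as well in Actc1 (−1.95), Col4a2 (−1.92), Afp (−1.84), Meis2 (−1.82), Dkk1 (−1.78), Lamc1 (−1.77), Pth1r (−1.75), Eomes (−1.73), Rhox6 (−1.72) and Dnmt3b (−1.72). Past the threshold on the negative side lay Lefty1 (−1.71), Amn (−1.71), Cubn (−1.70), Gata4 (−1.69), Hnf4a (−1.67), Pou5f1 (−1.63), Fgf17 (−1.58), Cdh5 (−1.56), Etv5 (−1.53) and Gata3 (−1.47). The difference was negative in Peg3 (−1.44), Lum (−1.43), Rhox9 (−1.42), L1td1 (−1.40), H19 (−1.39), Col3a1 (−1.31), Cyp26a1 (−1.22), Gdf3 (−1.17), Nid2 (−1.16) and Lin28a (−1.07). A negative difference was also found for Lifr (−1.03). The test gave a negative difference in Rdh10 (−1.0), Tcf15 (−0.92), Meis1 (−0.88), Snai1 (−0.81), Utf1 (−0.77), Irx3 (−0.75), Pax6 (−0.72), Fabp5 (−0.64), Cdh2 (−0.62) and Serpinh1 (−0.61). It was negative as well in Sall4 (−0.61), Nsd2 (−0.59), Dlk1 (−0.56), Apoe (−0.54), Hoxa2 (−0.52), Sox7 (−0.46), Hoxc9 (−0.45), Zscan10 (−0.44), Nrip1 (−0.40) and Hk2 (−0.29).

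The difference was positive in Spink8 (3.73), Adgrd1 (3.42), Nkx6-3 (3.31) and Cldn8 (3.19). A positive difference was also found for Kng2 (2.87), Cdh22 (2.82), Cdh23 (2.76), Hoxd3os1 (2.72), Inhbb (2.65) and Stra8 (2.17). The test gave a positive difference in Hoxb2 (1.68), Hoxc4 (1.60), Hoxd4 (1.36), Hoxd1 (1.32), Tdpoz3 (1.22), Hoxa4 (1.18), Hoxb7 (1.14), Thy1 (1.13), Hoxa7 (1.12) and Hoxb4 (1.12). It was positive as well in Cdkn2c (1.11), Foxc2 (1.06), Apoc2 (1.02), Sox2 (1.01) and Cdx1 (1.0). Past the threshold on the positive side lay Hoxa11 (0.99), Gdf15 (0.98), Esx1 (0.94), Crabp1 (0.92), Hoxb9 (0.91), Col1a1 (0.87), Nupr1 (0.87), Pdgfra (0.85), Phf19 (0.85) and Scd2 (0.83). The difference was positive in Tbx3 (0.78), Crabp2 (0.73), Rarb (0.73), Smoc2 (0.69), Zfp703 (0.68), Fzd5 (0.68), Tgm2 (0.67), Dhrs3 (0.64), Elavl3 (0.63) and Ret (0.63). A positive difference was also found for Tdpoz4 (0.62), Sox17 (0.61), Hoxc13 (0.59), Gata6 (0.59), Foxa1 (0.59), Aldh1a3 (0.57), Rarg (0.55), Rara (0.51), Pknox2 (0.50) and Ncoa1 (0.50). The test gave a positive difference in Hoxd8 (0.50), Skap2 (0.50), Ifi27 (0.45) and Pknox1 (0.44). Of the 136 genes, 80 were past the threshold with the same sign under every alternative run for the difference, 54 lost it under at least 1 and 11 turned sign under at least 1. With normexp the turned values were Actc1 (0.46), Hoxa2 (0.85), Hoxc9 (0.10), Pdgfra (−0.44), Dcn (0.58), Col3a1 (0.78), Lum (0.07) and Tdpoz4 (−0.27). In the authors' table they were Actc1 (0.27), Hoxa2 (0.68), Pdgfra (−0.52), Sox17 (−0.08), Dcn (0.40), Col3a1 (0.59), Tdpoz3 (−0.03), Tdpoz4 (−0.38) and Ifi27 (−0.08). With 1 of the 15 arrays left out, 11 of the genes lost the threshold (adjusted p 0.0501 to 0.0881). This happened for many of the 15 single omissions in Dlk1 (8), Hoxa4 (12), Hoxc13 (13), Lum (13) and Pknox2 (10). It happened without treated sh4 replicate 1 or treated sh4 replicate 3 for Apoe, Col1a1, Hoxc9 and Tdpoz4, without treated sh4 replicate 3 or treated shCTR replicate 1 for Hk2, without treated sh4 replicate 1 for Sox17. In 16 of the genes at least 1 group was not well above background on any array, so the sizes of their differences are not measured: Actc1, Afp, Cdh23, Cdh5, Cldn8, Clic5, Col3a1, Dcn, Gbp3, Hoxa2, Hoxd3os1, Lum, Olig3, Slc23a1, Spink8 and Ttr. The genes that lost the threshold under at least 1 alternative were Actc1, Aldh1a3, Apoa4, Apoe, Cdh2, Cdh23, Cldn8, Col1a1, Cyp26a1, Dcn, Dlk1, Elavl3, Esx1, Fabp5, Foxc2, Fzd5, Gata6, H19, Hk2, Hoxa11, Hoxa2, Hoxa4, Hoxc13, Hoxc9, Hoxd3os1, Hoxd4, Hoxd8, Ifi27, Irx3, Kng2, Lum, Ncoa1, Nrip1, Nsd2, Nupr1, Pax6, Peg3, Pknox1, Pknox2, Rara, Rarb, Rarg, Rdh10, Ret, Sall4, Skap2, Sox17, Sox7, Tcf15, Tdh, Tdpoz3, Tdpoz4, Utf1 and Zscan10.

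In 19 of the 270 named genes, 1 of the 4 untreated sh4 arrays stood apart from the other 3 by Dixon's criterion, which chance meets in about 1 of 20 groups. The treated sh4 arrays were not put to this criterion. Untreated replicate 1 was the far array for Prdm14 (level 1.20, nearest 1.01), Cldn8 (level −9.04, nearest −9.88), Egr1 (level −1.81, nearest −0.75), Gbx2 (level −0.64, nearest 0.57), Pou5f1 (level 4.07, nearest 4.42), Eomes (level −2.07, nearest −2.24), Epop (level 4.81, nearest 5.71) and Hk2 (level 4.85, nearest 4.72). Untreated replicate 2 was the far array for Il33 (level −3.72, nearest −3.94), Bco1 (level −9.96, nearest −9.15), Phf1 (level −1.48, nearest −1.83) and H19 (level 0.93, nearest 1.28). Untreated replicate 3 was the far array for Ppbp (level −9.41, nearest −8.21), Cdh22 (level −4.75, nearest −4.01), Crabp1 (level −1.28, nearest −1.59), Hoxb7 (level −4.51, nearest −4.62) and Cdkn2b (level −4.58, nearest −2.27). Untreated replicate 4 was the far array for Hoxb6 (level −6.19, nearest −5.97) and Idi1 (level 1.89, nearest 2.0).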

How the results depend on the processing

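The numbers of genes changed, higher and lower in sh4 cells stayed within 1.5 times their reported values under every alternative run. The number changed ran from 12063 with normexp to 16992 with slide as a block. It was 15595 with the replicate block, which is given here once since pairing by number was not established. Leaving out 1 array gave 13814 to 14594 changed genes, 6404 to 6745 higher, 7302 to 7913 lower, and 4266 to 4941 for the difference between hairpins, for which leaving out shCTR arrays was chosen after seeing the data. The difference fell to 2956 with median centring and 3044 with normexp. Of 246 named genes that passed, 227 passed with the same sign under every alternative with a test, and 244 had that sign within slides 1, 2 and 3. Medians kept their sign in 34 of 41 lists. Low signals limit folds of genes near background, and normexp gives smaller ones; the cause of the changes below was not tested. With the arrays rated for evaluation left out, 3 of retinoid receptors and cofactors fell, 0 of naive pluripotency rose, 1 of PRC2 subunits rose, 0 of G2 and mitosis rose and 3 of sterol and fatty acid synthesis fell. With only probes well above background on all arrays, 1 of other retinoic acid targets fell, 4 of Hox groups 1 to 3 rose, 4 of Hox groups 6 to 8 rose, 4 of Hox groups 9 to 13 rose, 6 of visceral endoderm products rose, 3 of endothelial and blood rose and 5 of claudins and tight junctions rose. With quantile normalisation, 1 of Hox groups 9 to 13 fell, 0 of basement membrane and parietal endoderm fell, 4 of G2 and mitosis rose, 11 of G2 and mitosis fell and 11 of sterol and fatty acid synthesis rose. With median centring, 1 of Hox groups 9 to 13 fell, 0 of naive pluripotency rose, 0 of G2 and mitosis rose, 3 of glycolysis and hypoxia rose and 3 of unfolded protein and amino acid stress rose. With normexp, 5 of Hox groups 9 to 13 rose, 1 of basement membrane and parietal endoderm fell and 0 of G2 and mitosis rose. With the authors' deposited log2 values, 1 of Hox groups 9 to 13 fell, 2 of naive pluripotency rose, 0 of basement membrane and parietal endoderm fell, 4 of G2 and mitosis rose, 10 of G2 and mitosis fell and 11 of sterol and fatty acid synthesis rose. With slide as a block, 1 of Hox cofactors fell, 2 of naive pluripotency rose, 6 of histone lysine methylation enzymes fell and 2 of DNA methylation and Tet enzymes rose. With the replicate block, 1 of Hox cofactors fell and 2 of DNA methylation and Tet enzymes rose. With no filter on dim probes, 0 of naive pluripotency rose. With the mean over probes, 2 of naive pluripotency rose. With only the sh4 arrays in the fit, 0 of naive pluripotency rose, 1 of basement membrane and parietal endoderm fell and 3 of sterol and fatty acid synthesis fell. With single arrays left out, 1 to 3 of other retinoic acid targets fell, 0 to 1 of Hox groups 9 to 13 fell, 0 to 1 of Hox cofactors fell, 0 to 1 of naive pluripotency rose, 1 to 3 of basement membrane and parietal endoderm fell, 1 to 2 of PRC2 subunits rose and 0 to 1 of G2 and mitosis rose. The sign turned with normexp for Cdh23 (−0.054), Bco1 (−0.11), Rxra (0.0069) and Cdh1 (0.0037). A turned sign was seen with median centring for Fabp5 (−0.058), Rxrg (−0.094), Il6st (−0.036), Cited1 (−0.024), Amn (−0.061), Lamc1 (−0.12) and Pax6 (−0.087). For Bco1 (−0.042), Rxrb (0.019), Rara (0.10), Lifr (0.046), Pax6 (−0.054) and Cdh1 (0.24) the sign turned with the authors' deposited log2 values. The sign turned with quantile normalisation for Rxrb (0.0030), Rara (0.11), Pax6 (−0.10) and Cdh1 (0.20). A turned sign was seen with the mean over probes for Rxra (0.21), Hoxa13 (0.93) and Lifr (0.50). For Rxra (0.030) and Rxrg (−0.040) the sign turned with slide as a block. The sign turned with the arrays rated for evaluation left out for Rxra (0.051) and Rxrg (−0.093). A turned sign was seen within slide 3 for Dppa2 (0.0051) and Nid2 (0.057). For Pax6 (−0.0056) the sign turned with the replicate block. Single arrays left out gave ranges through 0 for Apoa4 (−0.31 to 0.091), Cdh1 (−0.10 to 0.056), Hoxa13 (−0.34 to 0.20), Hoxc12 (−1.47 to 0.24), Lamc1 (−0.026 to 0.068), Rxra (−0.14 to 0.053) and Rxrg (−0.22 to 0.34). In the main fit all turned genes failed the test except Rxrb, Dppa2 and Nid2. Some turned values passed it under the alternative. These were Lifr (adjusted p = 5.2e-06) and Hoxa13 (adjusted p = 0.021) with the mean over probes. Cdh1 did so with quantile normalisation (adjusted p = 0.039) and the authors' deposited log2 values (adjusted p = 0.035).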
